A study of Mus musculus with 24 samples.

Results

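The nerve and myelin genes of the choroid were 7 protein-coding genes, Pmp22, Mbp, Mag, Prx, Sox10, Ncmap and Mal, taken by mouse symbol from a table of 56065 Ensembl genes. Each symbol matched 1 gene, and each of the 7 genes was above 0 in all 24 libraries and above the limit for testing in every comparison. Mbp, Mag and Mal differed widely between libraries of the same group, with the highest at least 9.73 times the lowest in each. Sox10 differed little among the unlasered Ceacam1-/- libraries, with the highest 1.13 times the lowest. Over the 24 libraries Mbp ranged from 273 to 375721 normalized counts and Mag from 10.5 to 7284, whereas Pmp22 ranged from 1625 to 13995. No member passed the threshold in any comparison of laser or genotype. A normalized count is the estimated number of reads of a gene after division by a factor for library size and transcript length.

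Myelin is the stacked membrane that glial cells wrap around axons. Schwann cells make it in peripheral nerves, including the ciliary nerves that cross the sclera and choroid, and oligodendrocytes make it in the brain and in the optic nerve behind the eye, while the mouse retina itself is unmyelinated. The compact layers of myelin hold structural proteins such as those of Mbp and Pmp22, the membrane next to the axon holds adhesion proteins such as that of Mag, and the transcription factors Sox10 and Egr2 switch on the genes of myelin in Schwann cells.

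Choroid RNA was sequenced in 4 wild type and 4 Ceacam1-/- libraries without laser, and in 9 wild type and 7 Ceacam1-/- libraries with laser. The Ceacam1-/- mice of the study carry a germline deletion of exons 1 and 2 of Ceacam1 and were compared with wild type littermates on the C57BL/6J background. The study used young adult mice of both sexes, its methods do not describe the laser mice apart, and the labels do not give the sex of a mouse. The laser was set to 6 spots per eye at 150 mW, with a spot of 200 µm and a pulse of 100 ms, to induce choroidal neovascularization, and the time between laser and tissue collection is not given in the sources used here. In its cell sorting methods, which precede those for RNA, the study names the complex of retinal pigment epithelium (RPE), choroid and sclera as choroid from there on. The normalized counts of a library summed to between 23704346 and 35094410, and these sums, not raw read numbers, are the depth that the values show.

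Ceacam1, the deleted gene, had 958, 5027, 1242 and 4596 normalized counts in the wild type libraries 21, 22, 26 and 27 without laser and 405, 505, 508 and 1171 in the Ceacam1-/- libraries 23, 24, 25 and 28. With laser it ranged from 774 to 8367 (median 996, n = 9) in wild type and from 67.8 to 905 (median 335, n = 7) in Ceacam1-/- mice. The genotypes overlapped in both settings, so the gene-level value of Ceacam1 did not separate every library by its label. The log2 fold change between genotypes was -1.95 (SE 0.60, limma adjusted p = 0.999) without laser and -2.17 (SE 0.52, limma adjusted p = 0.104) with laser.

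Markers of the labelled tissue were present in all 24 libraries. Rpe65 of the RPE ranged from 2045 to 56349 normalized counts, Mlana of pigment cells from 1331 to 15911, and Pecam1 of endothelium from 895 to 3717. Genes of neighbouring tissues were also present, with Acta1 of skeletal muscle from 3804 to 277408 and Krt5 of surface epithelium from 2.36 to 97240. The Ceacam1-/- laser libraries 14, 15 and 18 stood apart from the rest. Their summed counts of 10 pigment cell genes were 11884, 31418 and 11397, below the range of 49327 to 204306 in the other 21 libraries, and their sums of 6 RPE genes were 63238, 49391 and 36815, below the range of 159008 to 853497 in the others. The sums of 10 photoreceptor genes were 1052704 and 1113834 in libraries 14 and 18 and 600127 in library 15, against at most 626241 elsewhere. Library 23, from a Ceacam1-/- mouse without laser, had the highest sum of 12 oligodendrocyte genes, 156292, followed by Ceacam1-/- laser library 4 with 25825. The main results that rest on these libraries are given with and without them.

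The 7 genes lie on 6 chromosomes. In the build GRCm39, Pmp22 (ENSMUSG00000018217) lies on chromosome 11 from 63019718 to 63050600, Ncmap (ENSMUSG00000043924) on chromosome 4 from 135094616 to 135125538, and Prx (ENSMUSG00000053198) on chromosome 7 from 27196813 to 27219639. Mag (ENSMUSG00000036634) lies on chromosome 7 from 30598464 to 30614474, Mbp (ENSMUSG00000041607) on chromosome 18 from 82493207 to 82603763, Sox10 (ENSMUSG00000033006) on chromosome 15 from 79039108 to 79049469 and Mal (ENSMUSG00000027375) on chromosome 2 from 127475142 to 127498615. Prx and Mag share a chromosome with Ceacam1 and start 2.02 Mb and 5.42 Mb from it, so genotype differences of these genes and of the region linked to the deletion cannot be told apart. Antisense genes overlap 554 of 9745 exon bases of Mbp, 383 of 4960 of Mag and 321 of 5669 of Prx. Since the sources used here do not say that reads were counted by strand, reads of such partners cannot be told apart. The partner of Prx had a mean of 48.0 normalized counts beside 290 for Prx, and that of Mag 1.67 beside 458.

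Per kilobase of the canonical transcript, the median level over the 24 libraries was 2906 normalized counts for Pmp22, 1413 for Mbp, 799 for Sox10, 435 for Mal, 45 for Prx, 40.4 for Mag and 39.1 for Ncmap. Only the step from Mal to Prx held in all 24 libraries. Pmp22 was above Mbp in 15 libraries, Mbp above Sox10 in 18, Sox10 above Mal in 15, Prx above Mag in 18 and Mag above Ncmap in 11, so the ranges of these neighbours overlapped, and the order was not tested. In mice without laser Mbp had the highest group median in both genotypes, 4245 (wild type) and 8080 (Ceacam1-/-) per kilobase. With laser Pmp22 had the highest, 2970 and 3375.

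The 250 bases before the start of the canonical transcript are shown for Pmp22, Prx and Ncmap, 3 genes of peripheral myelin. Each pair of them was correlated past the threshold over the 24 libraries, but only Pmp22 with Prx was without libraries 14, 15 and 18. The windows lie on the plus strand at chr11:63021367-63021616 for Pmp22, on the plus strand at chr7:27198491-27198740 for Prx and on the minus strand at chr4:135112984-135113233 for Ncmap. All 3 windows lie within the annotated span of their gene, and overlap with exons of its other transcripts is not given here.
Pmp22: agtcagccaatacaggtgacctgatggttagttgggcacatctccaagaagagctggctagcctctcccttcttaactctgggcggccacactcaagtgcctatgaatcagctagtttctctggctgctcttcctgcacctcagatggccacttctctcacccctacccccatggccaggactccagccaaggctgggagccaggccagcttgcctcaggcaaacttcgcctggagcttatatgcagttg
Prx: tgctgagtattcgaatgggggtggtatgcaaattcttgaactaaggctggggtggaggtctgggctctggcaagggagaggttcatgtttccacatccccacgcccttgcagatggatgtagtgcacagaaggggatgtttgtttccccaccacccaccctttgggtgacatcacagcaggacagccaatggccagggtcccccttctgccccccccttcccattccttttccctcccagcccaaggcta
Ncmap: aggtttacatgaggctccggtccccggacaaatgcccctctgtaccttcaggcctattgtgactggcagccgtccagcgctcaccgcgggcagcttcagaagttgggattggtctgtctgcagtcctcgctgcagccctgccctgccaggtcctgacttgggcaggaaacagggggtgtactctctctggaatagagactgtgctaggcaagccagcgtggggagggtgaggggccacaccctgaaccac
The letters ACAAAG, a core that Sox proteins can bind, were sought on both strands of these windows and were not found, so no base is in capitals. Of the 7 members the window of Mbp alone held them. Over all 21599 windows of protein-coding genes 15.8% held the letters. The windows of Pmp22, Prx and Ncmap had a GC content of 56.0%, 56.8% and 61.2%, against a median of 53.2% over all windows.

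**Figure D1:**
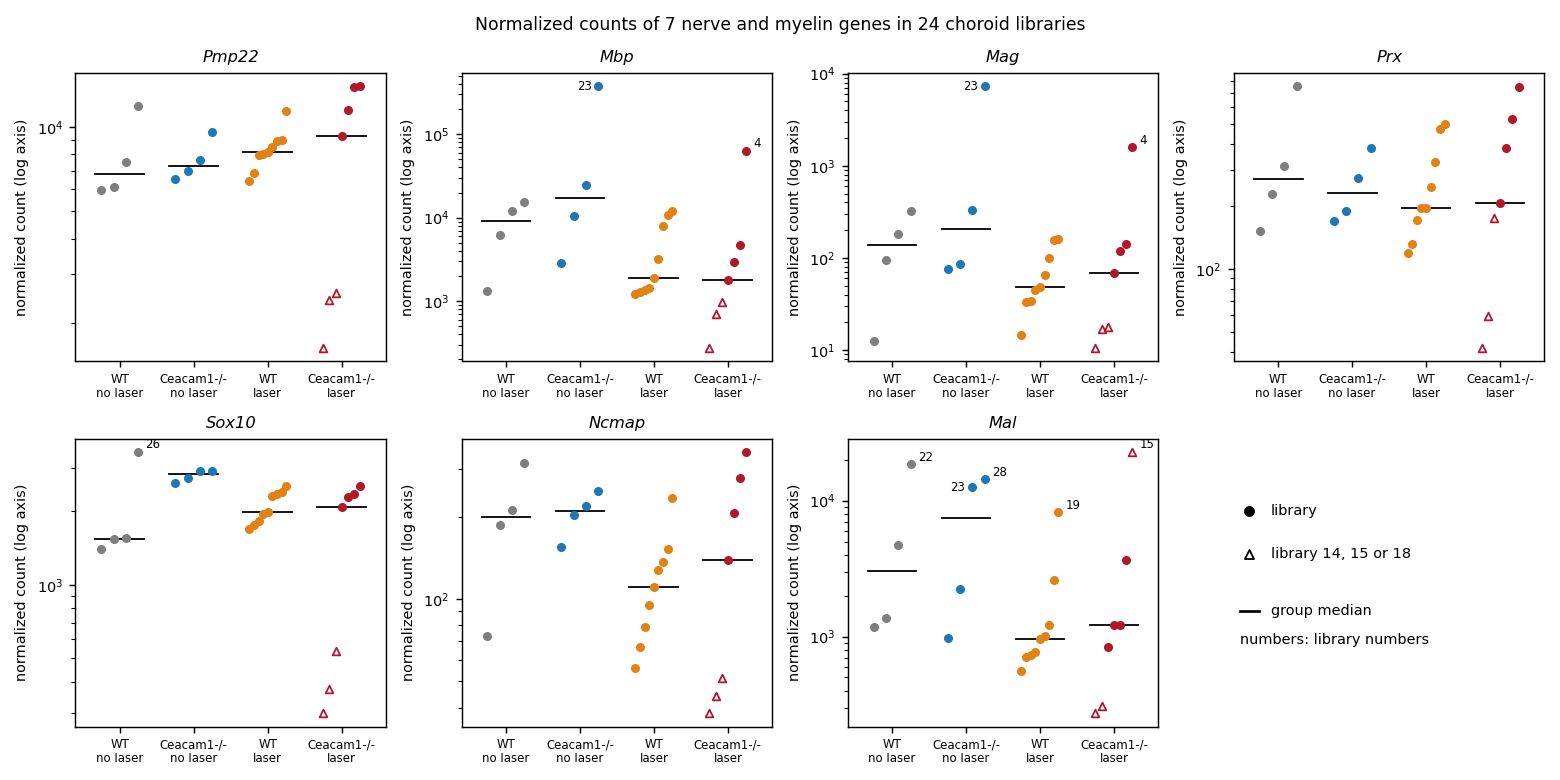
Normalized counts (vertical log axis) of each of the 7 genes in the 24 libraries, by genotype and laser (horizontal axis). Points are libraries, open triangles are the Ceacam1-/- laser libraries 14, 15 and 18, lines are group medians and numbers name libraries. Library 23 reaches 375721 for Mbp, and the triangles of Pmp22 lie between 1625 and 2568, below every other library.

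Pmp22 encodes a tetraspan protein of compact peripheral myelin and is also made by fibroblasts and other cells. It was 5985, 7516, 11903 and 6120 normalized counts in the wild type libraries 21, 22, 26 and 27 without laser, and 6515, 9630, 6956 and 7610 in the Ceacam1-/- libraries 23, 24, 25 and 28. With laser it ranged from 6402 to 11434 (median 8160, n = 9) in wild type and from 1625 to 13995 (median 9274, n = 7) in Ceacam1-/- mice. The wild type laser and both unlasered groups overlapped throughout. Ceacam1-/- mice with laser divided into 4 libraries from 9274 to 13995 and libraries 14, 15 and 18 from 1625 to 2568, and those 3 were lower than each of the other 21.

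Prx encodes periaxin, which ties the outer membrane of the myelinating Schwann cell to its surrounding matrix, and Ncmap encodes a membrane protein of noncompact peripheral myelin. In wild type libraries 21, 22, 26 and 27 Prx had 229, 314, 756 and 153 normalized counts, and in Ceacam1-/- libraries 23, 24, 25 and 28 it had 189, 273, 170 and 380. It ranged from 119 to 499 (median 197) in wild type and from 41.6 to 748 (median 207) in Ceacam1-/- mice with laser. All 4 groups overlapped in Prx, and library 26 held the highest value of the study, as it did within its group for Pmp22 and Ncmap. Ncmap had 187, 212, 315 and 73.0 normalized counts in wild type and 155, 218, 202 and 248 in Ceacam1-/- mice without laser, in the same order of libraries. With laser it ranged from 56.1 to 234 (median 111) in wild type and from 38.1 to 346 (median 139) in Ceacam1-/- mice. Libraries 14, 15 and 18 had 44.3, 38.1 and 51.4 of Ncmap, lower than the other 21 libraries, and 41.6, 59.1 and 175 of Prx, of which the last lay within the range of the others.

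Mbp encodes the protein that draws the cytoplasmic faces of the myelin membrane together in both peripheral and central myelin. Its gene-level value also holds the longer golli transcripts, which are made outside myelinating cells too. It had 15292, 12018, 6278 and 1325 normalized counts in the wild type libraries 21, 22, 26 and 27 without laser, and 375721, 10473, 24351 and 2896 in the Ceacam1-/- libraries 23, 24, 25 and 28. With laser it ranged from 1230 to 11969 (median 1889, n = 9) in wild type and from 273 to 63090 (median 1806, n = 7) in Ceacam1-/- mice. Libraries 23 and 4 held the extremes, and the other libraries of all 4 groups overlapped between 273 and 24351. In library 23 Mbp alone took 1.58% of all normalized counts.

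Mag encodes a glycoprotein of the membrane that faces the axon in central and peripheral myelin. It had 324, 180, 94.4 and 12.7 normalized counts in the wild type and 7284, 86.9, 329 and 75.4 in the Ceacam1-/- libraries without laser, in the order given for Mbp. With laser the range was 14.5 to 159 (median 48.9) in wild type and 10.5 to 1584 (median 68.8) in Ceacam1-/- mice. As for Mbp, libraries 23 and 4 held the highest values and the groups overlapped. The ratio of Mbp to Mag was between 24.5 and 121 over the 24 libraries, a narrower spread than that of either gene.

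Sox10 encodes the transcription factor of Schwann cells, oligodendrocytes and melanocytes, all but the second of which belong to the neural crest. In wild type libraries 21, 22, 26 and 27 it had 1551, 1394, 3498 and 1538 normalized counts, and in Ceacam1-/- libraries 23, 24, 25 and 28 it had 2599, 2923, 2908 and 2740. It ranged from 1689 to 2523 (median 1982) in wild type and from 298 to 2521 (median 2077) in Ceacam1-/- mice with laser. The Ceacam1-/- groups with and without laser did not overlap. The 4 higher laser libraries, from 2077 to 2521, lay just below the unlasered ones, whereas libraries 14, 15 and 18 had 374, 536 and 298, lower than all other libraries.

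Mal encodes a raft proteolipid that serves membrane transport in myelinating glia and also in epithelial cells. It had 1175, 18540, 1375 and 4718 normalized counts in wild type libraries 21, 22, 26 and 27 and 12556, 968, 2253 and 14326 in Ceacam1-/- libraries 23, 24, 25 and 28. With laser it ranged from 560 to 8197 (median 962) in wild type and from 272 to 22917 (median 1210) in Ceacam1-/- mice. The groups overlapped, and the highest value of the study was in library 15, in which Pmp22, Sox10, Ncmap and Prx were among the lowest. In libraries 14 and 18 Mal had 272 and 310, the lowest values of the 24.

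The 1st question was whether laser moved the 7 genes in either genotype. In wild type mice limma called 0 of the 7 members at an adjusted p under 0.05, where 5.28% of the 19950 genes tested were called. The median log2 fold change of the members was -0.69, that of all genes -0.10, and 0 members had an unadjusted p under 0.05, against 20.0% of all genes. Mal had a log2 fold change of -1.51 (SE 0.98, adjusted p = 0.399), Mbp of -1.07 (SE 1.17, adjusted p = 0.622) and Pmp22 of 0.13 (SE 0.44, adjusted p = 0.89). With 1 library left out Mal lay between -2.03 (without library 21) and -0.70 (without library 22) and Mbp between -1.82 (without library 27) and -0.64 (without library 21), and with array weights Mbp was at 0.58. In Ceacam1-/- mice limma called 0 of 7 members as well, where 3.72% of genes were called. Here 2 members had an unadjusted p under 0.05, against 20.0% of all genes, and the median of the members was -1.37 beside 0.02 for all genes. These were Mbp, with a log2 fold change of -3.35 (SE 1.22, unadjusted p = 0.0113, limma adjusted p = 0.121), and Sox10, with -1.37 (SE 0.48, unadjusted p = 0.00851, limma adjusted p = 0.103). All folds were fitted on log2 of the normalized count plus 1. In bulk tissue, fewer cells of a type and less RNA per cell cannot be told apart.

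Both values rested on the libraries named above. Without libraries 14, 15 and 18 the log2 fold change of Sox10 was -0.28 (limma adjusted p = 0.47) and that of Mbp -1.87 (limma adjusted p = 0.397), and without library 23 as well Mbp was at -0.52 (limma adjusted p = 0.803). Without library 4 alone, Mbp was at -4.15 and passed the threshold (limma adjusted p = 0.032). Sox10 was the middle member in both fits, with all libraries and without libraries 14, 15 and 18. The median of the members was therefore -0.28 without these libraries, beside -0.04 for all genes. Pmp22, Prx and Ncmap changed sign without libraries 14, 15 and 18, from -0.40 to 0.66 for Pmp22 (limma adjusted p = 0.0536 without them), from -0.25 to 0.80 for Prx and from -0.83 to 0.17 for Ncmap. The log2 fold changes of Mbp, Sox10 and Mal for laser in Ceacam1-/- mice stayed below 0 in all 24 alternatives, from -4.34 to -0.52 for Mbp, from -1.58 to -0.28 for Sox10 and from -2.44 to -0.50 for Mal. Mag was at -2.37 with all libraries (limma adjusted p = 0.278) and at -0.77 without libraries 14, 15 and 18. Without library 23 as well it was at 0.68, the 1 of its 24 alternatives above 0.

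**Figure D2:**
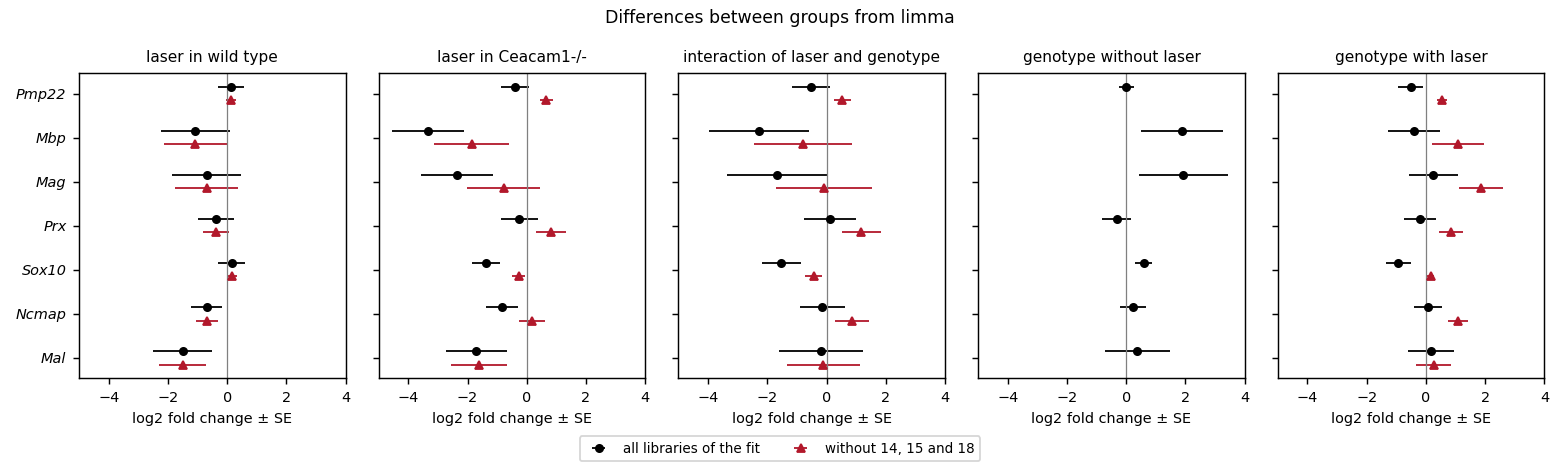
Log2 fold changes with standard errors (horizontal axis) of the 7 genes (vertical axis) in the 5 comparisons, from limma. Circles use all libraries of the fit and triangles leave out libraries 14, 15 and 18, which the comparison of genotype without laser does not use. Sox10 for laser in Ceacam1-/- mice is at -1.37 with all libraries and at -0.28 without the 3.

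The interaction, which tests whether the laser effect differed between genotypes, was called for 0 of 7 members and for 0% of genes. At an unadjusted p under 0.05 it held 1 member, beside 6.22% of all genes. That member was Sox10, with a difference of -1.53 between the log2 fold changes (SE 0.66, unadjusted p = 0.0297, limma adjusted p = 0.64), which was -0.44 without libraries 14, 15 and 18 (limma adjusted p = 0.999). The 2 laser effects share no libraries, but the comparisons of laser and of genotype share groups, so their values are given side by side and were not compared.

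The comparison of genotype asked whether the genes differ with the loss of Ceacam1. Without laser limma called 0 of 7 members and 0% of 20057 genes, and 0 members had an unadjusted p under 0.05, beside 1.53% of all genes. This fit did not call the deleted gene Ceacam1 either (log2 fold change -1.95, limma adjusted p = 0.999), so the lack of a call does not show a lack of difference. The study, with DESeq2 and sex as a covariate, reports some differentially expressed genes between genotypes in choroid. Of the 7 members 6 had a log2 fold change above 0, beside 9617 of 20057 genes. Of these 6, Pmp22 and Mal each took the other sign in 5 of 19 alternatives and Ncmap in 1. The median of the members was 0.37, beside -0.02 for all genes. Mbp was at 1.88 (SE 1.39), Mag at 1.93 (SE 1.51), Sox10 at 0.59 (SE 0.29) and Pmp22 at 0.00 (SE 0.27), each with a limma adjusted p of 0.999. Without library 23, Mbp was at 0.53 and Mag at 0.48. With laser limma called 0 of 7 members and 0.0202% of 19757 genes. Sox10 alone had an unadjusted p under 0.05, as did 22.7% of all genes. Its log2 fold change was -0.94 (SE 0.43, unadjusted p = 0.0413, limma adjusted p = 0.207), and 0.16 without libraries 14, 15 and 18 (limma adjusted p = 0.799).

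Single members were also compared between 2 groups by two-sided exact permutation tests of the difference in mean log2 value, 28 in all. For laser in Ceacam1-/- mice, the groups did not overlap for 1 of 7 members, Sox10, beside 2.13% of all genes (exact permutation p = 0.0273, unadjusted, where the smallest p that 7 against 4 libraries allow is 0.00303). The groups overlapped for all 7 members in the other comparisons, where 6.25% of genes did not overlap for laser in wild type, 1.36% for genotype without laser and 0.147% for genotype with laser. The other 27 exact permutation tests gave an unadjusted p of at least 0.071. The labels do not say that every library is from another mouse, so all p-values measure the spread between these libraries.

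The members were then compared across libraries. Log2 values were centred on their group means, and each pair of members was correlated over the 24 libraries, 21 pairs in all. Mbp and Mag went together most closely, with Pearson's r = 0.965 and Spearman's rho = 0.954 (permutation p = 1e-05 for both, the smallest that 100000 permutations can give, adjusted p = 0.000105). The r was 0.932 without the 2 libraries farthest from the median and 0.959 without libraries 14, 15 and 18. Pmp22 and Prx had an r of 0.859 and a rho of 0.853 (permutation p = 1e-05 for both, adjusted p = 0.000105), with an r of 0.77 without the 2 farthest libraries and of 0.842 without libraries 14, 15 and 18. Ncmap went with both, at an r of 0.85 with Pmp22 (rho 0.804, permutation p = 7e-05 and 0.00033, adjusted p = 0.00049 and 0.00173) and of 0.807 with Prx (rho 0.781, permutation p = 0.00019 and 0.00018, adjusted p = 0.000997 and 0.00126). Without libraries 14, 15 and 18 these were 0.641 and 0.642 (permutation adjusted p = 0.0503 for both).

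The link of Sox10 with Pmp22 and Ncmap rested on the same 3 libraries. Sox10 and Pmp22 had an r of 0.909 and a rho of 0.763 (permutation p = 0.0045 and 0.00437, adjusted p = 0.0157 and 0.0163), which was 0.876 without the 2 farthest libraries but 0.451 without libraries 14, 15 and 18. Sox10 and Ncmap went from an r of 0.698 to 0.0364. Mal passed the threshold with no other member, with an r between 0.0046 and 0.0215 with Pmp22, Prx, Sox10 and Ncmap, of 0.236 with Mag and of 0.268 with Mbp. Without libraries 14, 15 and 18 its r was -0.445 with Sox10 (permutation adjusted p = 0.355) and -0.226 with Pmp22. With Prx, Ncmap, Mag and Mbp it was then 0.1, 0.0363, 0.311 and 0.278. Of the 21 pairs 8 had an adjusted p for r under 0.05 over all 24 libraries. Without libraries 14, 15 and 18, 2 did, namely Mbp with Mag and Pmp22 with Prx. Of the 8, 3 joined Mbp or Mag, genes of central and peripheral myelin, with Pmp22 or Ncmap. These were Pmp22 with Mbp (r = 0.522, permutation adjusted p = 0.0442), Mbp with Ncmap (0.558, 0.0167) and Mag with Ncmap (0.585, 0.0157). Their r was 0.181, 0.346 and 0.335 without libraries 14, 15 and 18. By rho, Pmp22 with Mbp did not pass (0.473, permutation adjusted p = 0.0792). Mbp and Mag with Ncmap did (0.586 and 0.602, permutation adjusted p = 0.0186 and 0.0163). No difference between correlations was tested.

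**Figure D3:**
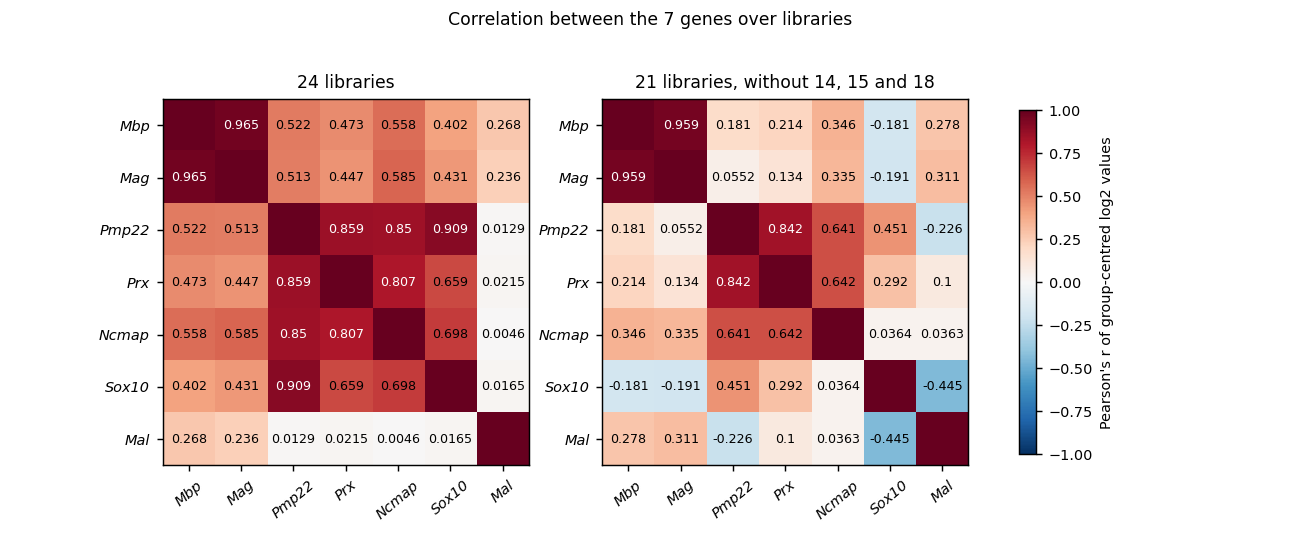
Pearson's r between the group-centred log2 values of the 7 genes over 24 libraries (left) and over 21 libraries without 14, 15 and 18 (right), with red for positive and blue for negative values. Mbp and Mag stay at 0.965 and 0.959, Pmp22 and Prx at 0.859 and 0.842, and Sox10 and Ncmap go from 0.698 to 0.0364.

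The members were set beside lists of other cell types, in 119 pairs of a member and a list. Mbp and Mag went with the oligodendrocyte list and with the list of other myelinating Schwann cell genes. The group-centred log2 value of Mbp had an r of 0.946 and a rho of 0.904 with the mean of the 12 genes (permutation p = 1e-05 for both, adjusted p = 0.000397). The r was 0.892 without the 2 farthest libraries and 0.967 without libraries 14, 15 and 18. Mag had an r of 0.912 and a rho of 0.897 with the list (permutation p = 1e-05 for both, adjusted p = 0.000397), with 0.819 without the 2 farthest libraries and 0.925 without libraries 14, 15 and 18. With the list of other myelinating Schwann cell genes the r was 0.882 for Mbp and 0.877 for Mag (permutation adjusted p = 0.000397 for both), and 0.847 and 0.855 without libraries 14, 15 and 18. With non-myelinating and injured Schwann cell genes it was 0.755 and 0.733 (permutation adjusted p = 0.00333 and 0.00815), and 0.787 and 0.775 without them. That list holds Olig1, a gene of the oligodendrocyte lineage with 3491 normalized counts in library 23 and 560 in library 4, listed at 0 in 6 libraries. Without Olig1 the r was 0.288 for Mbp and 0.273 for Mag. Whether the r differed between these lists was not tested.

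Genes of the oligodendrocyte list did not all vary alike. Mobp, a central myelin gene and the most abundant of the list by its mean, which library 23 carries, was 123145 normalized counts in library 23, 17502 in library 4, 5676 in library 25 and between 0.962 and 3991 in the other 21. Mog, whose product lies on the outer face of central myelin, was 4752 in library 23, 840 in library 4 and 222 in library 25, and it was listed at 0 in 11 of 24 libraries. Opalin was listed at 0 in 13 and Olig2 in 15 libraries. Ermn and Myrf of the same list were above 0 in every library, from 479 to 11639 and from 270 to 4062, and Ermn was above Mobp in 21 of 24 libraries. In libraries 26, 13 and 16 Ermn was 7739, 7320 and 7074 while Mobp was 892, 28.6 and 8.27. Where Mog, Opalin and Olig2 were listed at 0, Mbp was still present. In Ceacam1-/- laser library 5 Mog, Opalin, Olig2 and Hapln2 were at 0, Mobp was 18.9 and Mbp was 4744. That was the highest Mbp among libraries with Mog, Opalin and Olig2 all at 0. The next was 2905 in library 6, and the lowest was 273 in library 14. What part oligodendrocyte RNA has in the values of Mbp and Mag was not tested.

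Pmp22, Prx, Ncmap and Sox10 went with several lists of other cells of the choroid and sclera. Pmp22 had an r of 0.914 and a rho of 0.896 with the 6 fibroblast genes (permutation p = 2e-05 and 7e-05, adjusted p = 0.000397 and 0.00104), which was 0.861 without the 2 farthest libraries and 0.594 without libraries 14, 15 and 18. Sox10 had an r of 0.937 and a rho of 0.86 with the 10 pigment cell genes (permutation p = 5e-05 and 0.00031, adjusted p = 0.000744 and 0.00335), which was 0.879 without the 2 farthest libraries and 0.663 without libraries 14, 15 and 18. With RPE genes the r of Sox10 was 0.83 and its rho 0.871 (permutation adjusted p = 0.000397 for both), and 0.674 and 0.748 without libraries 14, 15 and 18. With endothelium, fibroblast and myeloid genes it was 0.86, 0.854 and 0.855 for Sox10, and 0.446, 0.355 and 0.359 without those 3 libraries. With T cell genes it was 0.689 for Sox10 (permutation adjusted p = 0.0108), and 0.369 without them. With pigment cell, endothelium and myeloid genes it was 0.877, 0.852 and 0.821 for Pmp22, and 0.438, 0.358 and 0.366 without them. Prx had an r of 0.774 with fibroblast genes (permutation adjusted p = 0.00278) and of 0.685 with pigment cell genes (permutation adjusted p = 0.0411), and 0.509 and 0.456 without them. Ncmap had an r of 0.714 with fibroblast genes (permutation adjusted p = 0.0224) and of 0.696 with endothelium genes (permutation adjusted p = 0.0326), and 0.225 and 0.289 without them. Prx and Ncmap had an r of 0.665 and 0.663 with the list of other myelinating Schwann cell genes (rho 0.627 and 0.708, permutation adjusted p = 0.0108 and 0.00936 for r), 0.517 and 0.657 without the 2 farthest libraries, and 0.457 and 0.468 without libraries 14, 15 and 18. Negative values past the threshold were those of Pmp22 with ganglion cell (r = -0.617) and photoreceptor genes (-0.587), of Sox10 with ganglion cell (-0.608), photoreceptor (-0.593) and axon genes (-0.564), and of Ncmap with photoreceptor genes (-0.58), with permutation adjusted p between 0.0108 and 0.0247. They were between -0.44 and -0.206 without libraries 14, 15 and 18. Pmp22 had an r of 0.662 with the other myelinating Schwann cell genes (permutation adjusted p = 0.0185), and 0.351 without the 3 libraries. No fibroblast, pigment cell or RPE list was at 0 in a library, and their part in the values of Pmp22, Prx, Ncmap and Sox10 was not tested.

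Mal went with the list of surface epithelium, the 9 keratin, junction and basal cell genes of cornea and conjunctiva. Its r was 0.833 and its rho 0.77 (permutation p = 5e-05 and 0.00028, adjusted p = 0.000744 and 0.00335), with 0.721 without the 2 farthest libraries and 0.795 without libraries 14, 15 and 18. The summed counts of the list were 519296 in library 28, 472529 in library 15, 336936 in library 22, 203326 in library 19 and 92320 in library 27, and between 707 and 18835 in the other 19. Krt15, its most abundant gene by the mean over libraries, was 204359 normalized counts in library 28, 106417 in library 15 and 1.86 in library 26. Krt12 was above it in 4 of 24 libraries, with 178593 in library 15. The 6 highest values of Mal were in these 5 libraries and in library 23, where the list summed to 16264 and Mobp was highest. Mal also had an r of 0.749 and a rho of 0.65 with the 14 genes of myelin lipid synthesis, many of which make cholesterol in all cells (permutation p = 0.00089 and 0.00568, adjusted p = 0.00815 and 0.0282), 0.618 without the 2 farthest libraries and 0.799 without libraries 14, 15 and 18. The part of epithelial RNA in the values of Mal was not tested. Over all 119 pairs 31 had an adjusted p under 0.05 for r.

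**Figure D4:**
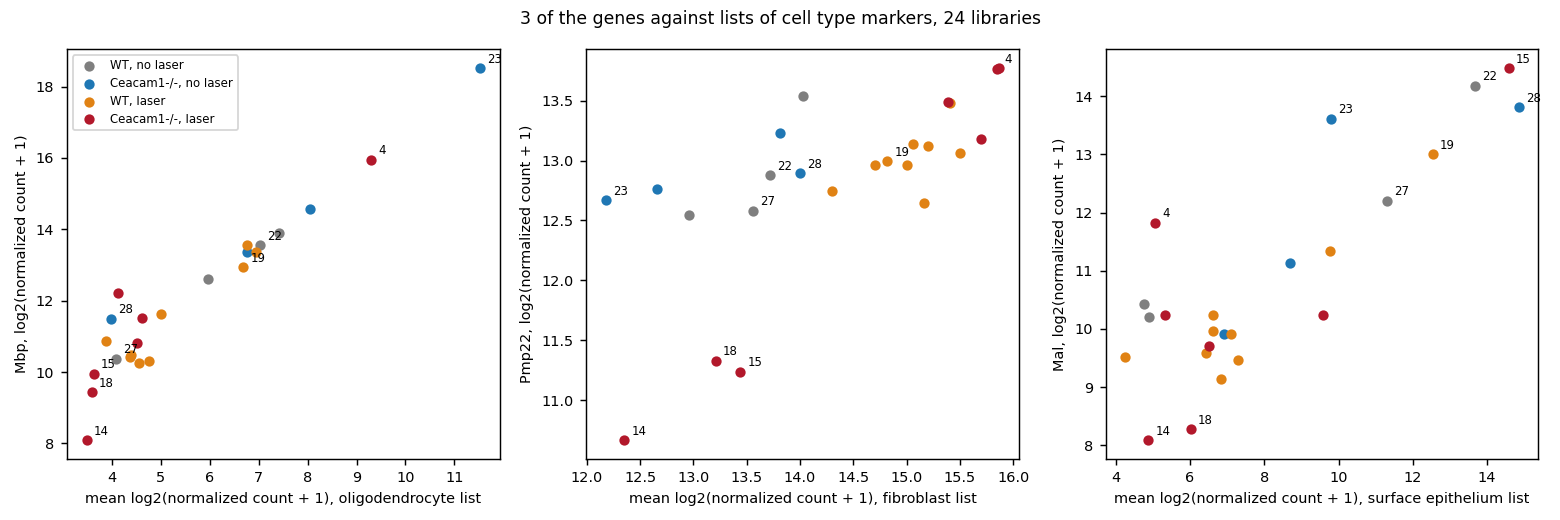
Log2(normalized count + 1) of Mbp, Pmp22 and Mal (vertical axes) against the mean log2(normalized count + 1) of the oligodendrocyte, fibroblast and surface epithelium lists (horizontal axes) in 24 libraries, coloured by group, with some libraries numbered. Library 23 is highest in the oligodendrocyte list and in Mbp, libraries 14, 15 and 18 are lowest in Pmp22, and libraries 15, 22 and 28 are high in the epithelial list and in Mal.

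As a description, the mean of the 7 members was correlated with each list over the 24 libraries, which the values share along with their depth. The r was 0.934 with the 24 other genes of the myelinating Schwann cell, several of which, such as Cnp, also serve central myelin, and 0.913 without libraries 14, 15 and 18. It was 0.753 with oligodendrocyte genes and 0.637 with genes of non-myelinating and injured Schwann cells, the list that holds Olig1, and 0.84 and 0.789 without the 3 libraries. With pigment cell, fibroblast, endothelium and myeloid genes it was 0.632, 0.597, 0.536 and 0.517, and -0.151, -0.175, -0.414 and -0.255 without them. The other 10 lists were between -0.359 and 0.364, and between -0.618 (T cell) and 0.438 (myelin lipid synthesis) without libraries 14, 15 and 18.

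Of 14165 other protein-coding genes with a mean of at least 50, those whose group-centred log2 values over the 24 libraries were most like the mean of the members included Cldn11 (r = 0.865), Carhsp1 (0.857), Csrp1 (0.855), Gjc3 (0.852), Vwa1 (0.852), Aspa (0.851), Ugt8a (0.846), Fam43a (0.839) and Tmem63a (0.839). The gene most like a single member was Cd302 for Pmp22 (r = 0.971), Gcnt2 for Prx (0.918), Tcn2 for Sox10 (0.961) and Pllp for Mal (0.905). Without libraries 14, 15 and 18 these r values were between 0.617 and 0.836 for the genes named for the mean of the members, and 0.794, 0.828, 0.781 and 0.857 for the genes named for single members.

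The wider genes of nerve and myelin were counted in 5 lists, and with all libraries Egr2 and Th passed the threshold for laser in wild type mice. Pmp2 did so for laser in Ceacam1-/- mice, but only behind a filter that its own difference let it pass. The share called in the list of each gene is given beside that of all genes. Egr2, the transcription factor that drives the myelin programme of Schwann cells and is also an early response gene of macrophages and other cells, had 75.5 ± 22.9 normalized counts (SD, n = 4) in wild type mice without laser and 381 ± 121 (SD, n = 9) with laser. The groups did not overlap, with 51.1 to 97.9 against 186 to 540. Egr2 rose with a log2 fold change of 2.30 (SE 0.47, limma adjusted p = 0.00439), and it was called in all 26 alternatives. In Ceacam1-/- mice it ranged from 38.7 to 135 without and from 76.9 to 555 with laser, with a log2 fold change of 1.59 (SE 0.49, limma adjusted p = 0.07) and an interaction of -0.71 (limma adjusted p = 0.708). Without libraries 14, 15 and 18 it was called in Ceacam1-/- mice too, at 2.43 (SE 0.41, limma adjusted p = 0.000475). It was the 1 gene of 24 tested in the myelinating Schwann cell list that was called in wild type mice, where 5.28% of all genes were called, and the median of the list was -0.28 beside -0.10 for all genes.

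Pmp2, the fatty acid binding protein of peripheral myelin, was the 1 gene of 24 in the same list under the threshold for laser in Ceacam1-/- mice, where 3.72% of all genes were called. It was 9.29, 1.15, 0 and 7.05 normalized counts in libraries 23, 24, 25 and 28 and ranged from 11 to 39 (median 23.5, n = 7) with laser. The groups did not overlap, but all values were low, and Pmp2 passed the limit of a mean of 10 only through the laser groups. Its log2 fold change of 2.70 (SE 0.70) is therefore given as a description, and it was not called with no filter on low values, nor in 6 of the other 22 alternatives. In wild type mice it was 2.71 to 6.39 without and 0.867 to 44.3 with laser, with a log2 fold change of 1.40 (SE 0.67). The median of the list in Ceacam1-/- mice was -0.73 beside 0.02 for all genes, and -0.105 beside -0.04 without libraries 14, 15 and 18.

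Th, which encodes tyrosine hydroxylase, the enzyme of catecholamine synthesis in sympathetic nerves and in amacrine cells of the retina, was the 1 gene of 13 tested in the autonomic and sensory list that was called, in a comparison that called 5.28% of all genes. It fell in wild type mice from 178 ± 42.8 (SD, n = 4) to 35.2 ± 26 (SD, n = 9) normalized counts. The groups did not overlap, with 139 to 222 against 9.05 to 89.6. The log2 fold change was -2.59 (SE 0.56, limma adjusted p = 0.00658), and all 26 alternatives called it. In Ceacam1-/- mice Th was 177 ± 103 (SD, n = 4) and 50.8 ± 23.5 (SD, n = 7), with a log2 fold change of -1.68 (SE 0.58, limma adjusted p = 0.102) and an interaction of 0.91 (limma adjusted p = 0.691). There the groups overlapped, with 42.4 to 267 without and 10.5 to 86.7 with laser, and library 23 held the 42.4. Th was not called in Ceacam1-/- mice without libraries 14, 15 and 18 either. Dbh, which acts after Th in the same pathway and was picked here after its values were seen, had at most 84.7 normalized counts in any library and was not called.

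**Figure D5:**
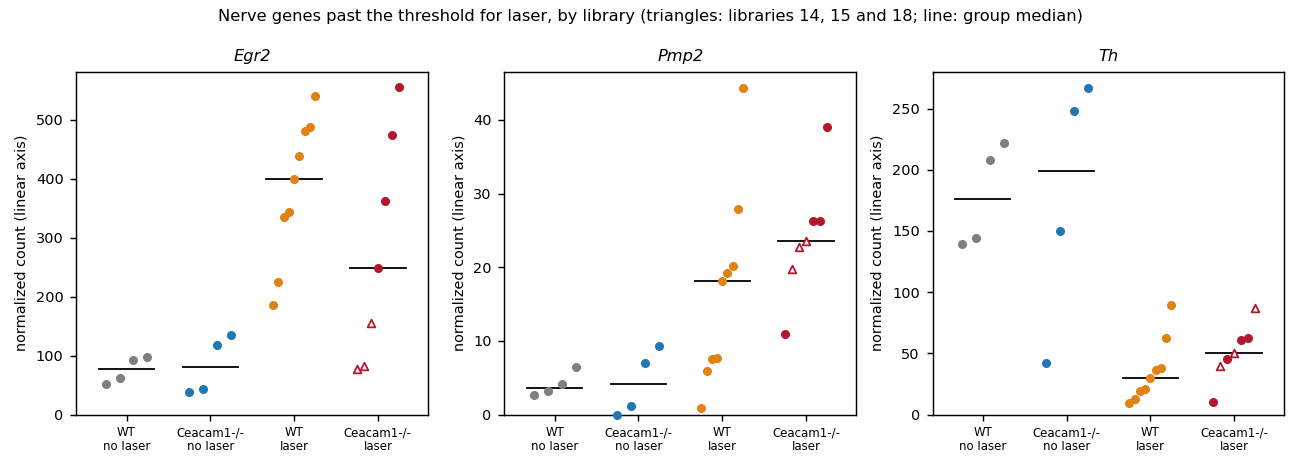
Normalized counts (vertical linear axes from 0) of Egr2, Pmp2 and Th by genotype and laser (horizontal axis). Points are libraries, triangles are libraries 14, 15 and 18 and lines are group medians. In wild type mice Egr2 lies at 51.1 to 97.9 without and 186 to 540 with laser, and Th at 139 to 222 without and 9.05 to 89.6 with laser.

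With all libraries the genes of the 5 lists other than Egr2, Th and Pmp2 were not called in any comparison. For laser in wild type mice the medians were 0.10 for non-myelinating and injured Schwann cells (16 tested), -0.61 for axon and node (16 tested), -1.03 for autonomic and sensory nerve and -0.53 for myelin lipid synthesis (14 tested), beside -0.10 for all genes. In Ceacam1-/- mice they were 0.05, 0.23, 0.48 and -0.17 in the same order, beside 0.02 for all genes, and 0.355, 0.00, 0.03 and -0.43 without libraries 14, 15 and 18, beside -0.04. That fit, which called 10.2% of all genes, called 2 further genes of these lists as lower with laser in Ceacam1-/- mice. They were Ank3, the ankyrin of the axon initial segment and node (log2 fold change -0.96, SE 0.26, limma adjusted p = 0.0213), and Fdft1, an enzyme of cholesterol synthesis (-1.01, SE 0.19, limma adjusted p = 0.00163). With all libraries the interaction and both comparisons of genotype called 0 genes of any of the 17 lists.

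Markers of other cell types moved with laser beside these genes. Of 7 myeloid genes all 7 had a log2 fold change above 0 in wild type and 6 did in Ceacam1-/- mice. Called as higher were 6 in wild type and 5 in Ceacam1-/- mice, among them Ptprc, Lyz2, Cd68, Adgre1 and Aif1 in both. In Ceacam1-/- mice these 5 were not called when the fit held no wild type libraries (limma adjusted p from 0.0904 to 0.168), and Aif1 was not called in 5 of 24 alternatives. Adgre1 and Ptprc were also not called there without library 25. Lyz2, the most abundant, was 8289 ± 2680 (SD, n = 4) and 56126 ± 19146 (SD, n = 9) normalized counts in wild type mice without and with laser, a log2 fold change of 2.74 (SE 0.40, limma adjusted p = 0.000129). All 6 fibroblast genes had a log2 fold change above 0 for laser in both genotypes. Col3a1 and Lum were called in wild type and Lum in Ceacam1-/- mice. Of 13 muscle genes 0 had a log2 fold change above 0 for laser in either genotype. In Ceacam1-/- mice 12 of them had an unadjusted limma p under 0.05, beside 20.0% of all genes, and Ryr1 alone was called, as lower. Col3a1 was not called in 1 of 26 alternatives in wild type, the fit without library 21 (limma adjusted p = 0.0599). Lum was not called in 5 of 26 alternatives in wild type and in 7 of 24 in Ceacam1-/- mice, and Ryr1 was not called in 8 of 24, among them the fit without libraries 14, 15 and 18 (limma adjusted p = 0.0508). Without libraries 14, 15 and 18 all 6 fibroblast and 6 of 7 myeloid genes were called as higher in Ceacam1-/- mice. Pmel of the pigment cell list and Cd3e of the T cell list were also called as higher there. With all libraries no gene of the oligodendrocyte, pigment cell, lens, epithelium, T cell, photoreceptor, ganglion cell, RPE or endothelium lists was called. The median log2 fold change of the oligodendrocyte list was -0.76 for laser in wild type, -2.59 for laser in Ceacam1-/- mice and 1.60 for genotype without laser. For laser in Ceacam1-/- mice it was -1.84 without libraries 14, 15 and 18. Library 23 stood apart in this list, with a mean log2 value of 11.52. Without laser the other Ceacam1-/- libraries lay between 3.987 and 8.059 and the wild type libraries between 4.083 and 7.41. The medians for laser in Ceacam1-/- mice and for genotype without laser both use library 23 and are not given without it. Other lists had medians of like size for laser in Ceacam1-/- mice, with 2.36 for photoreceptor, -2.07 for muscle, -1.61 for RPE and -2.54 for surface epithelium genes, and 0.617, -1.57, -0.585 and -3.40 without libraries 14, 15 and 18. In wild type mice these medians were -1.40, -0.94, -0.07 and -1.14. What part myeloid cells have in the rise of Egr2 was not tested.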

How the data were processed

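Total RNA of choroid tissue was made into SMART-Seq libraries, and the authors pseudo-aligned the reads to GRCm39 with Salmon 1.10.3 after a check with FastQC 0.11.5. The deposited signal values are normalized counts from DESeq2 1.44.0 for 56065 genes, estimated reads scaled by the authors for library size and transcript length, and not raw counts. The study adjusted its tests for sex and screened for outlier libraries, and neither is named in the labels used here. The annotation matched 99.1% of the gene identifiers.

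The 7 genes and all lists were chosen with earlier results of these data known. Groups were taken from the labels. Genes with a mean of at least 10 in a fit were tested with limma 3.58.1 (R 4.3.3) with a trend of variance on mean, on log2 of the value plus 1, with Benjamini-Hochberg adjustment over all genes tested and a threshold of 0.05. Laser and the interaction were fitted on all 24 libraries, and genotype on its own 8 or 16. The method was also run on simulated independent normal log2 values. These lack the differences between libraries that many genes share here, and the outcome is not reported here. Correlations used 100000 permutations within groups and were adjusted within their family.

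Lists covered myelinating Schwann cells (24 of 25 names matched), non-myelinating Schwann cells, axon and node, autonomic and sensory nerve, myelin lipid synthesis and 12 other cell types. The genes named were the members, up to 5 called genes per list and direction, the 10 genes most like the mean of the members and the 1 most like each member, and some of these genes are not reported here. The strand setting of the counts and the time after laser are not given in the sources used here, and protein sequences were not analysed here. Alternatives were other pseudocounts, filters, scalings and variance models, array weights, a covariate of Y-linked genes, another choice of fitted libraries and the loss of each library in turn. Python 3.11.15 was used for tables and figures.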

Additional observations from a re-analysis of the deposited data

Results flagged for a closer look

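In 28 sets of 1 member in 1 group, a library was looked for whose gap to its nearest neighbour took most of the range of the group, past Dixon's 95% limit. For values of normal spread chance alone passes the limit in about 1 in 20 sets, and 7 of the 28 sets were past it on the scale of normalized counts, which are skewed. On the log2 scale 1 of the 28 was, Sox10 in library 26. Library 23 was far above the other Ceacam1-/- libraries without laser in Mbp (375721 normalized counts) and in Mag (7284). Library 4 was far above the other Ceacam1-/- laser libraries in Mbp (63090) and in Mag (1584). Library 15 of the same group stood out in Mal (22917). Among wild type libraries, library 19 with laser stood out in Mal (8197) and library 26 without laser in Sox10 (3498). All 7 were the highest value of their group.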

How the results depend on the processing

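No paired analysis was possible because the library numbers are unique and no group shares a number with another. The count of members called was 0 in all 5 comparisons and stayed 0 in every alternative but 2. With array weights Mal was called for laser in wild type mice, so that 1 member was called there (log2 fold change -1.88, limma adjusted p = 0.03). With each library left out in turn, between 0 and 1 members were called for laser in Ceacam1-/- mice, the 1 being Mbp without library 4. Of 931 values of a member's log2 fold change under an alternative 856 kept their sign and their side of the threshold and 73 changed sign without a call in either. Leaving out libraries 14, 15 and 18, like all alternatives that drop several libraries, was chosen after seeing the data. Without them 2 of 21 pairs of members were correlated at an adjusted p for r under 0.05, in place of 8. The count of all genes called moved far more. For laser in wild type mice it was 1053, and 6505 with array weights, 2274 with only the libraries compared, 2128 without libraries 14, 15 and 18, 2753 without library 23 as well, 479 without library 21 and 554 without library 27. For laser in Ceacam1-/- mice it was 742, and 437 with no filter, 3551 with array weights, 38 with only the libraries compared, 2005 without libraries 14, 15 and 18, 2782 without library 23 as well, and between 148 (without library 25) and 2488 (without library 23) with each library left out. For genotype with laser it was 4, and 297 with array weights, 9 with all 24 libraries, 2 with a mean of at least 50 or without libraries 14, 15 and 18, and up to 61 (without library 19). For genotype without laser it was 0, and 1 with array weights, without trend or without library 24. The cause was not tested. Depth as a number of reads is unknown.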
